A study of Mus musculus with 4 samples.

Results

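The genes described here are 9 chemokine receptors of mouse CD4 T cells, *Ccr2*, *Ccr4*, *Ccr6*, *Ccr8*, *Cxcr3*, *Cxcr4*, *Cxcr5*, *Cxcr6* and *Xcr1*. They were found by their symbols among the 24369 genes listed for each library, and all 9 were present. Naive CD4 T cells from spleens of wild-type C57BL/6 mice were activated with anti-CD3, anti-CD28 and IL-2 without polarizing cytokines and transduced on day 2. One group received an empty vector retrovirus carrying GFP (EV RV) and the other a retrovirus encoding both Tox and GFP (Tox RV), and both were driven by the MSCV vector. On day 5 all cultures were restimulated for 5 h with anti-CD3 and, by the design text though not the methods, anti-CD28, and GFP+ CD4 T cells were sorted for RNA-seq, with 2 libraries per group, which the study describes as biological replicates from 2 mice. The sex and age of these mice are not given in the sources used here. The sample labels name a recombinant human anti-CD28 where the methods name recombinant human IL-2.

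Chemokine receptors are G protein-coupled receptors that steer leukocytes along gradients of small secreted proteins, the chemokines, through Gi proteins and the adhesion machinery. T helper subsets are known for different sets of them. CXCR3 marks Th1 cells, CCR4 and CCR8 are carried by Th2 and Treg cells, CCR6 by Th17 cells and CXCR5 by T follicular helper (TFH) cells, which it draws to B cell follicles. CXCR4 answers to CXCL12 on most lymphocytes, CXCR6 marks activated and tissue-resident T cells, CCR2 is known best from monocytes, and XCR1 from cross-presenting dendritic cells.

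Library totals ran from 46989997 to 74548723 expected counts. Wherever a pair of values is given for a group, replicate 1 comes before replicate 2. TPM is a level scaled to the library and corrected for transcript length, and it puts *Tox* itself at 7.22 and 3.37 (EV RV) and at 69.1 and 56.9 (Tox RV), as the labels have it. All 7 CD4 T cell markers examined (*Cd3d*, *Cd3e*, *Cd3g*, *Cd4*, *Cd5*, *Cd28* and *Thy1*) were at 81.0 TPM or above in every library, and *Cd8a* stayed between 0.82 and 1.15 TPM. EV RV replicate 1 differed most in its share of counts from the 45S pre-rRNA gene *Rn45s*, which was 24.7% there, 7.14% in Tox RV replicate 2 and between those in the others. The part of this in the results was not tested. Between replicates the log2 differences of all genes had an SD of 0.68 in the empty vector group and 0.44 in the Tox group.

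Of the 9 receptors, 6 lie on chromosome 9, 3 of them as close neighbours. In GRCm38 (mm10), the build of the files, *Ccr4* spans chr9:114490316-114504916 on the minus strand and *Ccr8* chr9:120092114-120094906 on the plus strand. *Cxcr6* (chr9:123806475-123811760, plus strand) is followed after 40.6 kb by *Xcr1* (chr9:123852315-123862029, minus strand), and *Ccr2* (chr9:124101950-124113557, plus strand) begins 239.9 kb after *Xcr1*. *Cxcr5* is at chr9:44511787-44561877 on the minus strand. The others are *Cxcr4* at chr1:128588199-128592293 on the minus strand, *Cxcr3* at chrX:101731535-101734269 on the minus strand and *Ccr6* at chr17:8236043-8257141 on the plus strand. All 9 are annotated as protein coding.

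The study asked whether Tox acts at sites shared with BATF, IRF4 and JunB, so the 250 bases before each RefSeq start (GRCm38.p6) were searched for the AP-1 word TGAGTCA on both strands. RefSeq start sites were matched for 8 of the 9 receptors, in 9 windows since *Ccr6* has 2, and *Cxcr5* was not matched. The word was in 1 window, that of *Ccr4*, against 4.46% of all 32851 windows of this length. There it directly follows GAAA. GAAA joined to TGAGTCA or to its reverse complement TGACTCA, on either strand, is an arrangement that BATF and IRF4 are known to bind together, and it was in 0.0761% of all windows. The joined word was searched for only after the *Ccr4* sequence had been seen. Shown are the windows of *Ccr4*, which holds the word, of *Ccr8*, the most abundant receptor, and of *Cxcr6*, which had the largest fitted difference among the receptors above 1 TPM. Capitals mark the joined word in *Ccr4*, which begins 147 bases before the start.
Ccr4, chr9:114496545-114496794, minus strand: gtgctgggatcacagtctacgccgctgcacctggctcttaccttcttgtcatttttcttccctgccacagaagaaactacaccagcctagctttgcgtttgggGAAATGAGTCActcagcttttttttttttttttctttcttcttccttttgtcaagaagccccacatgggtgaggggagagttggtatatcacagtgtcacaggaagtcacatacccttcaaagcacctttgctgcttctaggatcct
Ccr8, chr9:120091883-120092132, plus strand: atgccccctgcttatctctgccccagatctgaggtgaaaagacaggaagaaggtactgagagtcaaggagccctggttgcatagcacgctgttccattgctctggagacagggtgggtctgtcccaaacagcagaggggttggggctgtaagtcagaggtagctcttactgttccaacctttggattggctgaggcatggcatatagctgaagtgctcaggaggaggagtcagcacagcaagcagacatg
Cxcr6, chr9:123806227-123806476, plus strand: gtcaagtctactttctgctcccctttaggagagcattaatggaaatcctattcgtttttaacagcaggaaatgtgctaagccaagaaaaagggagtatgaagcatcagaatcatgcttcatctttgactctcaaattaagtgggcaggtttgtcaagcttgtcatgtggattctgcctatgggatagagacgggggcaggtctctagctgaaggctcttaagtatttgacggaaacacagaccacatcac
The *Ccr4* window lies inside the gene as GENCODE draws it, downstream of a further annotated start. A match describes letters in these windows and not a bound site.

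By length-corrected level the receptors spanned from abundant mRNAs to the limit of detection. *Ccr8*, *Ccr4*, *Cxcr4*, *Cxcr3* and *Cxcr6* had a mean over the 4 libraries of 145.9, 82.0, 54.1, 30.1 and 23.3 TPM. *Ccr2* and *Xcr1* followed at 2.53 and 2.32 TPM, and *Cxcr5* and *Ccr6* at 0.488 and 0.0600 TPM. *Ccr8* ranked 759 among the 24369 genes by mean TPM and *Ccr4* 1382. Every library placed *Ccr8* first, and its lowest value (129 TPM) exceeded the highest of *Ccr4* (104 TPM). *Ccr4*, *Cxcr4*, *Cxcr3* and *Cxcr6* were not separated from their neighbours in this order beyond the spread between libraries. *Cxcr4* exceeded *Ccr4* in EV RV replicate 1, and *Cxcr6* exceeded *Cxcr3* in Tox RV replicate 1, whereas *Cxcr4* was above *Cxcr3* in 4 of 4 libraries although their ranges overlapped. *Cxcr6* did not overlap with *Ccr2*, whereas *Ccr2* was above *Xcr1* in 2 of 4 libraries. *Xcr1* was above *Cxcr5* (lowest 1.78 against highest 0.68 TPM), and *Cxcr5* above *Ccr6* (lowest 0.26 against highest 0.08 TPM), with no overlap. In bulk RNA a lower level cannot be told apart from fewer cells that carry the receptor.

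**Figure D1:**
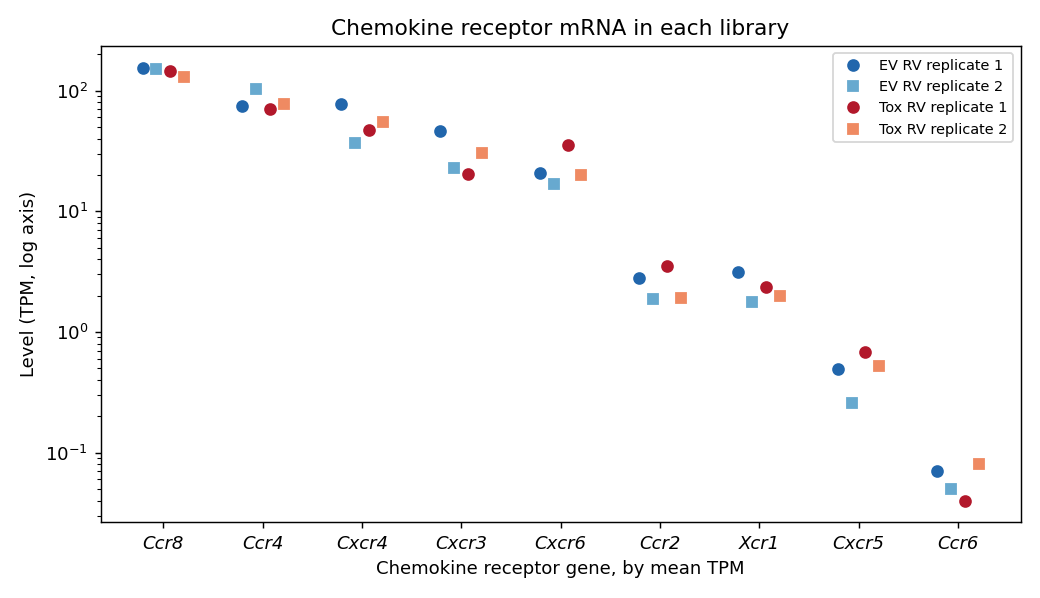
TPM on a log axis for each receptor gene, ordered by mean TPM, with 1 point per library (blue, EV RV replicates 1 and 2; red and orange, Tox RV replicates 1 and 2). *Ccr8* sits between 129 and 156 TPM in all 4 libraries, whereas *Ccr6* stays at or below 0.08 TPM.

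Added up, the 9 receptors came to 382.9 and 336.5 TPM with the empty vector and to 327.8 and 315.8 TPM with Tox. *Ccr8* made up 40.6% and 45.1% of that sum with the empty vector and 44.8% and 40.9% with Tox. *Ccr4* and *Ccr8* together, the receptors of Th2 and Treg cells, made up 60.3% and 76.1% (EV RV) and 66.6% and 65.4% (Tox RV). Both Tox RV libraries thus lay between the EV RV libraries. Divided by the Th1 receptor *Cxcr3*, *Ccr4* plus *Ccr8* gave a ratio of 4.94 and 11.2 (EV RV) and 10.7 and 6.82 (Tox RV), again with overlap (two-sided exact permutation p = 1 over the 4 libraries, adjusted p = 1 over 3 ratios). *Cxcr6* divided by *Ccr8* gave 0.135 and 0.111 (EV RV) and 0.243 and 0.154 (Tox RV). This ratio was higher in both Tox RV libraries (exact permutation p = 0.333, the smallest that 2 libraries against 2 can give, adjusted p = 1). *Cxcr6* divided by *Cxcr3* gave 0.448 and 0.737 (EV RV) and 1.74 and 0.656 (Tox RV), with overlap (exact permutation p = 0.667, adjusted p = 1).

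**Figure D2:**
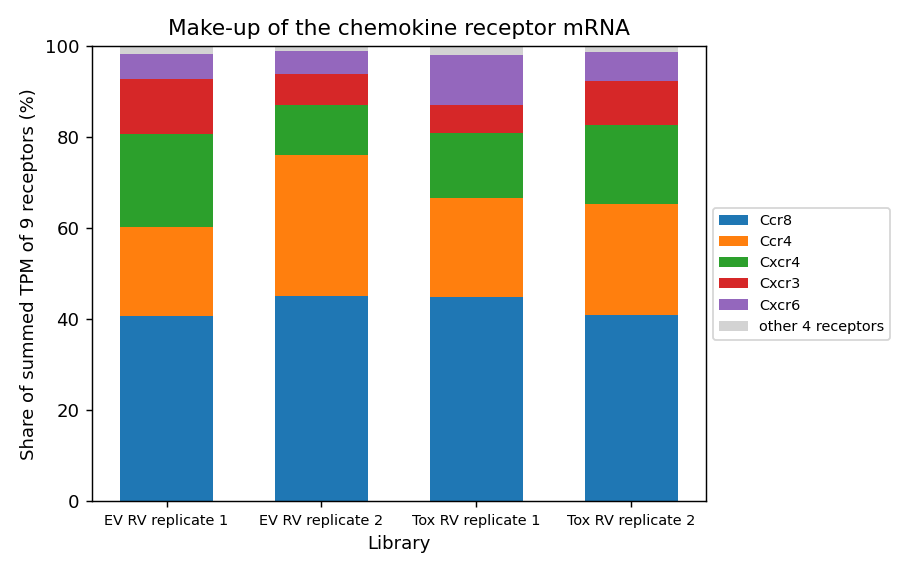
Stacked bars of the share (%) of the summed TPM of the 9 receptors in each library; the grey part is *Ccr2*, *Xcr1*, *Cxcr5* and *Ccr6* together. *Ccr8* is the largest part in every bar (40.6% to 45.1%), and the share of *Cxcr6* is largest in Tox RV replicate 1 (10.9%).

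For the effect of Tox, genes with enough counts (14143 genes, 8 of the 9 receptors) were compared by edgeR's quasi-likelihood test, and p-values were adjusted over all 14143 by the Benjamini-Hochberg method. At an adjusted p of 0.05, 0 of 8 receptors and 0 of all genes passed (0%). Unadjusted p-values fell below 0.05 for 0 of 8 receptors, beside 512 of all genes (3.62%). With DESeq2, 0 receptors had an adjusted p below 0.05, beside 22 genes of the 18183 given one (0.121%), and a single receptor, *Cxcr6*, had an unadjusted p below 0.05 (3.21% of all genes). The fitted level with Tox was higher for 3 receptors and lower for 5, and their median log2 fold change was -0.07 against 0.00 for all genes. CPM are counts scaled to library size with TMM factors. On that scale the Tox RV pair lay wholly above the EV RV pair for 2 of 8 receptors, *Cxcr6* and *Cxcr5*, beside 18.6% of all genes. It lay wholly below for 0 of 8, beside 17.4%, so that 2 of 8 receptors did not overlap, beside 36.0% of genes in either direction. A fold change beyond 2 was fitted for 0 of 8 receptors and for 3.38% of all genes. When EV RV replicate 1, the library with the high *Rn45s* share, was left out, the log2 values were -0.10 for *Ccr8*, -0.45 for *Ccr4*, 0.51 for *Cxcr4*, 0.18 for *Cxcr3*, 0.76 for *Cxcr6*, 0.57 for *Ccr2*, 0.33 for *Xcr1* and 1.26 for *Cxcr5*, and 0 of 8 passed an adjusted p of 0.05. The signs of *Cxcr4*, *Cxcr3* and *Xcr1* thus depended on that library.

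**Figure D3:**
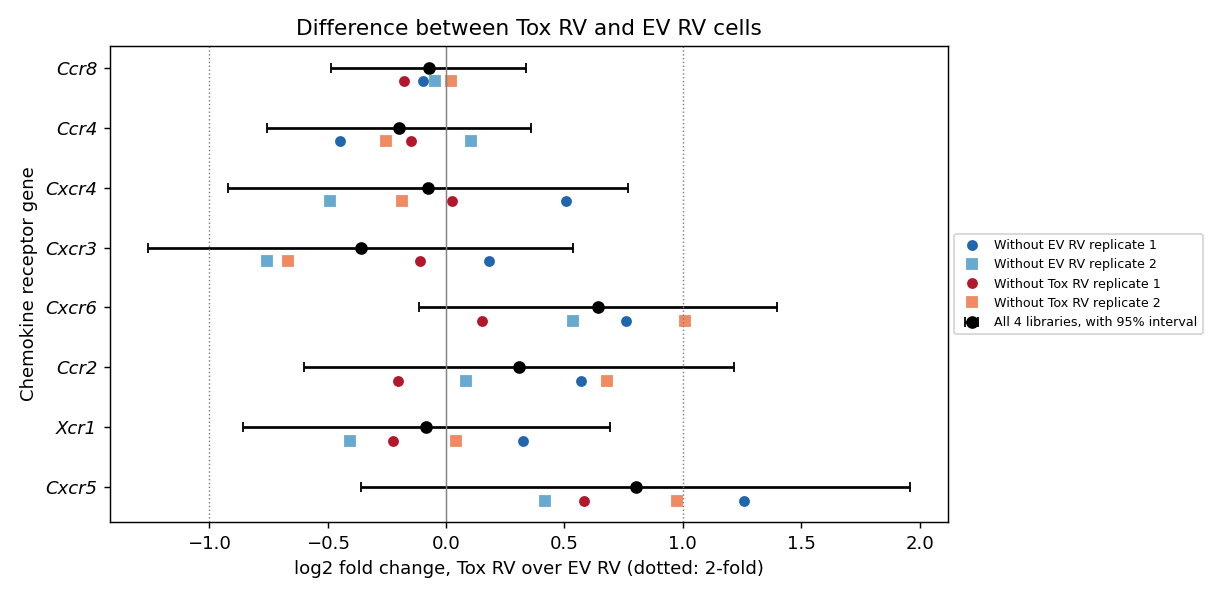
Log2 fold change of Tox RV over EV RV for the 8 receptors tested (black points, with 95% confidence intervals from edgeR) and the same value with 1 library left out (coloured points). Every interval covers 0, and the points of *Ccr8* lie within 0.2 of 0 while those of *Cxcr4* spread from -0.49 to 0.51.

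*Ccr8*, the receptor of CCL1, was the most even of the group. It was measured at 93.7 and 96.3 CPM with the empty vector, and at 96.3 and 84.5 CPM with Tox. The 4 libraries thus fell within a narrow range, and Tox RV replicate 2 was the lowest. The fitted log2 difference was -0.07 (SE 0.17, 95% interval -0.48 to 0.34, adjusted p = 0.942), which as a fold is 0.951 with an interval from 0.715 to 1.27. In TPM the Tox RV pair (147 and 129) lay below the EV RV pair (156 and 152), so the arrangement depended on the scale. Its 3 nearest genes in pattern over the 4 libraries were *Lyrm9*, *Srm* and *Syngr2*, with a root mean square difference of 0.0130 or less in centred log2 CPM. As many as 1066 genes lay within 0.1, so a pattern this flat was common.

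*Ccr4*, the receptor of CCL17 and CCL22 and the gene whose window holds the AP-1 word, stood at 119 and 173 CPM (EV RV) and 122 and 133 CPM (Tox RV). EV RV replicate 2 was the highest library, and the Tox RV values lay between those of the EV RV pair. Its log2 difference of -0.20 (SE 0.23, 95% interval -0.75 to 0.36, adjusted p = 0.902) was smaller than the gap of 0.54 between the EV RV replicates. The fold interval, 0.593 to 1.28, leaves out a 2-fold change in either direction, as do those of *Ccr8*, *Cxcr4* and *Xcr1*.

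*Cxcr4*, which holds lymphocytes in CXCL12-rich tissue, stood at 77.9 and 38.7 CPM (EV RV) and 51.0 and 59.5 CPM (Tox RV). The EV RV replicates lay on either side of the Tox RV pair and differed by 1.01 on the log2 scale. Between the groups the log2 difference was -0.08 (SE 0.34, 95% interval -0.92 to 0.77, adjusted p = 0.973). It was 0.51 when EV RV replicate 1 was left out and -0.49 when EV RV replicate 2 was.

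*Cxcr3*, the receptor of the interferon-induced chemokines CXCL9, CXCL10 and CXCL11, stood at 40.8 and 21.1 CPM (EV RV) and 19.4 and 28.7 CPM (Tox RV). EV RV replicate 1 was the highest, and the other libraries overlapped. The fitted difference was -0.36 log2 (SE 0.36, 95% interval -1.26 to 0.54, adjusted p = 0.897), so the fold interval (0.418 to 1.45) holds a 2-fold decrease. It turned to 0.18 when EV RV replicate 1 was left out. NK cells also carry *Cxcr3*. Cells were sorted for CD4 and GFP, and the purity of that sort is not given in the sources used here. A list of 5 NK cell markers summed to 91.1 and 58.1 TPM (EV RV) and 62.0 and 37.5 TPM (Tox RV), and *Ncr1* was at 0 counts in all 4 libraries. *Eomes*, which activated T cells express too, made up much of the sum and was highest in EV RV replicate 2, at 37.3 and 48.3 TPM (EV RV) and 31.0 and 30.7 TPM (Tox RV). *Klrd1* was high in replicate 1 of either group, at 33.2 and 4.21 TPM (EV RV) and 21.9 and 4.26 TPM (Tox RV). Its highest library, EV RV replicate 1, was also that of *Klrk1*, *Klrb1c* and *Cxcr3*, whereas *Cxcr3* was lowest in Tox RV replicate 1. *Klrk1* was at 19.9 and 5.46 TPM (EV RV) and 8.65 and 2.44 TPM (Tox RV), and *Klrb1c* at 0.73 TPM or less. Their part in the *Cxcr3* value was not tested.

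*Cxcr6*, the receptor of CXCL16, stood at 21.8 and 18.6 CPM (EV RV) and 40.5 and 22.5 CPM (Tox RV). The groups did not overlap in CPM, but Tox RV replicate 2 was close to EV RV replicate 1 and fell below it in TPM (19.9 against 20.9). The fitted difference was 0.64 log2 (SE 0.31, 95% interval -0.11 to 1.40, unadjusted p = 0.0827, adjusted p = 0.897), a fold of 1.56. DESeq2 gave 0.65 log2 (SE 0.32, unadjusted p = 0.0453, adjusted p = 1.00). Tox RV replicate 1 set the size of this difference, which was 0.15 log2 without that library and 1.01 log2 without Tox RV replicate 2. *Cxcr6* lies within *Fyco1*, a gene on the other strand with which it shares 0 exon bases. *Fyco1* stood at 61.9 and 35.2 CPM (EV RV) and 42.6 and 35.3 CPM (Tox RV), a log2 difference of -0.32. Use of strand in counting is not stated.

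*Cxcr5*, the TFH receptor of CXCL13, was scarce, with 31 counts in either EV RV library and with 70 and 44 counts under Tox. These are 0.735 and 0.407 CPM against 1.11 and 0.848 CPM, with both Tox RV values above. The fitted difference of 0.80 log2 (SE 0.47, 95% interval -0.36 to 1.96, adjusted p = 0.897) was the largest of the 8 and the least precise. Leaving out 1 library at a time gave 0.42 to 1.26. In the annotation 110 of its 3332 exon bases overlap *Bcl9l* on the other strand, and *Bcl9l* stood at 31.0 CPM in EV RV replicate 1 and at 8.89 to 9.52 CPM elsewhere. B cells also carry *Cxcr5*. Of 5 B cell markers *Ms4a1* and *Pax5* were at 0 counts throughout, *Cd79a* and *Cd79b* were between 0.33 and 1.81 TPM, above the level of *Cxcr5* in most libraries, and the list summed to 1.66 and 2.28 TPM (EV RV) and 1.95 and 2.14 TPM (Tox RV).

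*Ccr6*, the receptor of CCL20, had 2 and 3 counts (EV RV) and 2 and 3 counts (Tox RV). All 4 libraries were thus at or below the floor of 3 counts. It did not enter the test, and a difference was not detectable at this depth.

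*Ccr2*, the receptor of CCL2 and related chemokines, stood at 5.76 and 4.09 CPM (EV RV) and 7.86 and 4.28 CPM (Tox RV). Tox RV replicate 1 was the highest, and the other Tox RV library lay between the EV RV replicates. The fitted difference was 0.31 log2 (SE 0.37, 95% interval -0.60 to 1.22, adjusted p = 0.905), and it turned to -0.20 when Tox RV replicate 1 was left out. One transcript of *Ccr2* shares 310 bases at 91.0% identity with a transcript of another gene, so its count could be divided between them. Monocytes and macrophages also carry *Ccr2*, and their part in its value was not tested. Of 7 markers of these cells *Lyz2* and *Cd14* were at 2 counts or fewer in all libraries, and *Tyrobp* was at 0 and 2 counts (EV RV) and 11 and 1 (Tox RV). *Fcer1g*, the largest part of the list, was at 2.23 and 1.42 TPM (EV RV) and 0.91 and 0.67 TPM (Tox RV). *Itgam*, at 11 and 19 counts (EV RV) and 44 and 17 (Tox RV), was highest in the library where *Ccr2* was highest, whereas *Adgre1* was highest in EV RV replicate 2 (95 counts), and *Csf1r* had 18 counts or fewer. The list summed to 2.66 and 2.40 TPM (EV RV) and 2.14 and 1.38 TPM (Tox RV).

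*Xcr1*, the receptor of the chemokine XCL1, stood at 8.11 and 4.83 CPM (EV RV) and 6.62 and 5.55 CPM (Tox RV). The EV RV values enclosed the Tox RV pair. The fitted difference was -0.08 log2 (SE 0.31, 95% interval -0.86 to 0.69, adjusted p = 0.967). Of 5 markers of XCR1+ dendritic cells, *Clec9a* was at 0 counts in 3 libraries and at 2 in Tox RV replicate 1, and *Itgax*, *Flt3* and *Cadm1* were at 14 counts or fewer. *Zbtb46*, a transcription factor of dendritic cells, made up nearly all of the list, with 9.35 and 4.73 TPM (EV RV) and 5.72 and 3.87 TPM (Tox RV). Stretches of the *Xcr1* transcript, up to 191 bases long, are 90% or more identical to transcripts of 197 other genes, the most among the 9 receptors. The *Xcr1* counts, 288 to 419 per library, could therefore hold reads of other genes, and its level is uncertain.

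The ligands of these receptors were examined beside them. Of 15 ligand genes 7 were tested (3 with a higher and 4 with a lower fitted level under Tox, median -0.14 log2), and 6 were at the floor in all libraries. *Ccl1*, a ligand of CCR8, was abundant in the cultures that carried *Ccr8*, at 298 and 499 TPM (EV RV) and 833 and 342 TPM (Tox RV). These values overlapped, with a log2 difference of 0.63 (SE 0.47, adjusted p = 0.897). *Xcl1*, the ligand of XCR1, stood at 148 and 85.7 TPM (EV RV) and 854 and 436 TPM (Tox RV). Its log2 difference of 2.56 (SE 0.41) had an adjusted p = 0.897 in edgeR and 2.58e-09 in DESeq2, whereas the value of its receptor was close to 0. *Cxcl16*, the ligand of CXCR6, stayed at 0.90 to 1.32 TPM, with the Tox RV pair above (0.54 log2, SE 0.31, adjusted p = 0.897). *Cxcl10*, a ligand of CXCR3, stood at 7.67 and 4.12 TPM (EV RV) and 3.48 and 3.33 TPM (Tox RV). The Tox RV pair lay below (-0.69 log2, SE 0.36, adjusted p = 0.897). *Ccl22*, a ligand of CCR4, was at 0.26 TPM or less in every library, and *Cxcl12*, the ligand of CXCR4, had 1 count in EV RV replicate 1 and 0 elsewhere. *Ccl17*, the other ligand of CCR4, had 8 and 36 counts (EV RV) and 6 and 7 (Tox RV), and *Cxcl13*, the ligand of CXCR5, had 2 and 26 (EV RV) and 4 and 13 (Tox RV). *Cxcl9* had 8 to 19 counts, *Cxcl11* 7 or fewer and *Ccl20*, the ligand of CCR6, 2 or fewer. The CCR2 ligands *Ccl2*, *Ccl7* and *Ccl12*, and the further ligand gene *Ccl8*, were at 0 counts in all 4 libraries.

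**Figure D4:**
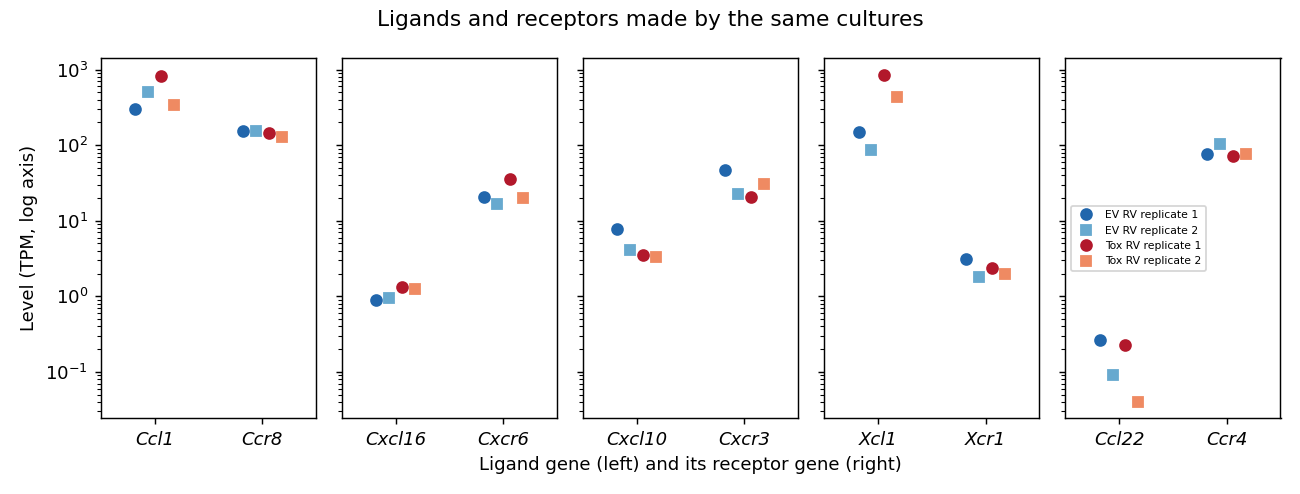
TPM on a log axis for 5 ligand genes (left in each panel) and their receptor genes (right), with 1 point per library in the colours of the key. *Xcl1* is at 436 and 854 TPM in the Tox RV libraries against 85.7 and 148 TPM in the EV RV libraries, while the points of *Xcr1* overlap between 1.78 and 3.15 TPM.

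Of 15 further chemokine receptor genes 8 were tested, with a higher fitted level under Tox for 2, a lower one for 6 and a median of -0.39 log2. *Ccr7*, which guides naive and central memory T cells into lymph nodes, exceeded all 9 receptors above in mean TPM. It stood at 628 and 304 TPM (EV RV) and 161 and 229 TPM (Tox RV), with the Tox RV pair below. Its log2 difference was -1.16 (SE 0.36, 95% interval -2.05 to -0.27, unadjusted p = 0.0193, adjusted p = 0.897), and DESeq2 gave an adjusted p of 0.215. It was the single gene of the list with an unadjusted p below 0.05 in edgeR and in DESeq2, beside 3.62% and 3.21% of all genes. Its EV RV replicates differed by 0.97 on the log2 scale of CPM. *Cxcr2*, known mainly from neutrophils, stood at 22.4 and 20.1 TPM (EV RV) and 15.4 and 15.0 TPM (Tox RV), a difference of -0.40 log2 (SE 0.16, adjusted p = 0.897).

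The signalling genes that chemokine receptors share were examined next. All 33 genes of a list of G protein subunits, receptor kinases, arrestins, regulators of G protein signalling (RGS), small GTPases and related signalling genes were tested. The fitted level under Tox was higher for 15 and lower for 18, between -0.50 and 0.79 log2 with a median of -0.03, and 0 passed an adjusted p of 0.05. *Pik3r5*, a regulatory subunit of the PI3K that G protein-coupled receptors activate, was the single gene of the 33 with an unadjusted p below 0.05 in edgeR, beside 3.62% of all genes. DESeq2 put *Pik3r5*, *Rgs16* and *Rasgrp2* below 0.05 (unadjusted p = 0.0468, 0.0402 and 0.0469 in the DESeq2 fit), beside 3.21% of all genes. There *Rgs16* and *Rasgrp2* were higher under Tox (0.58 and 0.65 log2), whereas *Pik3r5* was lower. *Pik3r5* stood at 46.3 and 35.4 TPM (EV RV) and 27.8 and 26.8 TPM (Tox RV), a difference of -0.50 log2 (SE 0.18, unadjusted p = 0.0364, adjusted p = 0.897). Most abundant was *Rgs1*, a brake on chemokine receptor signalling, at 203 and 336 TPM (EV RV) and 384 and 302 TPM (Tox RV). It was followed by the integrin-activating GTPase *Rap1b* and the G protein subunit *Gnb2*. Their log2 differences were 0.42, -0.16 and -0.09, and each interval covered 0.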

How the data were processed

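RNA-seq was carried out on 4 libraries, 2 of EV RV and 2 of Tox RV cells. The authors aligned reads with bowtie to mm10 transcripts and quantified genes with RSEM, 1 library per file, while the labels also list Bowtie2. Versions and use of strand are not given in the sources used here. The deposited expected counts are RSEM estimates per gene, not normalized. The deposited TPM, also from RSEM, are scaled to the same sum in each library. The deposited FPKM, corrected for length and depth, served to check the order of levels. One more deposited table, covering all libraries, was not used, since its columns did not have the same total.

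After rounding, expected counts were tested with edgeR 4.0.16 under R 4.3.3 (filterByExpr with a minimum count of 10, TMM, glmQLFit and glmQLFTest). DESeq2 1.42.0, named in the methods, and limma 3.58.1 on log2(TPM + 1) and log2(TPM + 0.1) were alternatives. Standard errors were taken from the log2 fold change and the F statistic, and 95% intervals from 5.77 degrees of freedom. The p-values of these fits rest on the spread between 2 libraries per group, combined with that over all genes tested. In edgeR 3.77 of the 5.77 degrees of freedom came from the genes as a whole. Tests were tested on simulated data.

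The members and lists were chosen with earlier results of these data known. All members are named, with list genes at an unadjusted p below 0.05, the 3 most abundant of each list and ligands of members. Of the genes that this rule names 2 are not reported here, nor is 1 marker gene. *Klf2*, *S1pr1* and genes overlapping a member were added after their values were seen. *Grk2* is listed in the files as *Adrbk1*. Near copies were found with blastn against GENCODE M21 transcripts (at least 150 bases at 90% identity). Promoters are from RefSeq GRCm38.p6.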

Additional observations from a re-analysis of the deposited data

How the results depend on the processing

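No alternative gave a receptor an adjusted p-value below 0.05. Over all genes the count called was 22 with DESeq2, 22 with every gene kept in the fit, and 16 under a replicate block, and ranged from 1 to 600 with 1 library left out (600 without EV RV replicate 2, 1 without EV RV replicate 1, 12 without Tox RV replicate 1 and 23 without Tox RV replicate 2), against 0 with all 4 libraries. A fit that leaves 1 library in a group assumes that it varies like the other group. Of 88 log2 fold changes of receptors under these alternatives 12 changed sign. Of these 3 came with scaling by library totals, which raised the median of all genes to 0.12. On that scale *Ccr8* at 0.047, *Cxcr4* at 0.077 and *Xcr1* at 0.059 stayed below that median. The cause of the sign changes was not tested. The replicate block turned *Cxcr4* to 0.0040. With each library left out the ranges were -0.18 to 0.023 for *Ccr8*, -0.45 to 0.10 for *Ccr4*, -0.49 to 0.51 for *Cxcr4*, -0.76 to 0.18 for *Cxcr3*, -0.20 to 0.68 for *Ccr2* and -0.41 to 0.33 for *Xcr1*, and *Cxcr4* was also at 0.03 without Tox RV replicate 1 and *Xcr1* at 0.04 without Tox RV replicate 2. *Cxcr6* (0.15 to 1.01) and *Cxcr5* (0.42 to 1.26) kept their direction in these fits. Their groups did not overlap in CPM, as held for 36.0% of all genes, so leaving out 1 library was no separate check. The deviations of libraries with the same number correlated at 0.30 across genes, but nothing in the sources ties a number to a mouse. With the block, edgeR gave *Cxcr6* a log2 fold change of 0.58 (unadjusted p = 0.0145, adjusted p = 0.426). In that fit 1232 of 14143 genes had an unadjusted p below 0.05, against 512 without the block. The ligand *Xcl1* was called in edgeR too with the block (2.52, SE 0.20, adjusted p = 6.04e-05). Leaving out the 45S pre-rRNA (*Rn45s*) raised TPM by 0.790% to 3.60%, which moved *Ccr8* in EV RV cells to 157.6 TPM, beyond its small spread, and FPKM gave the same order of the 9 receptors. Depth limits *Ccr6* and *Cxcr5*, and with 2 libraries per group a permutation test cannot reach a p-value below 0.333.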

Other observations

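A list of 9 other genes of T cell trafficking was examined, made up of receptors, the selectin ligand gene *Selplg* and the transcription factor gene *Klf2*. The fitted level under Tox was higher for 2 and lower for 7 of the 9, all tested, at a median of -0.26 log2, and 0 had an unadjusted p-value below 0.05 in edgeR's quasi-likelihood test. *S1pr1* and *Klf2* are described because of their values. *S1pr1*, the receptor by which T cells leave lymphoid organs, was at 37.1 and 12.6 TPM in EV RV and 9.21 and 15.2 TPM in Tox RV cells. DESeq2 gave it an unadjusted p of 0.0262 and an adjusted p of 1.00. In the DESeq2 fit 3.21% of all genes had an unadjusted p below 0.05. *Klf2*, the transcription factor that maintains *S1pr1*, was at 36.6 and 4.84 TPM in EV RV and 6.46 and 7.73 TPM in Tox RV cells. In both genes EV RV replicate 1 was highest and the other EV RV library lay within or below the Tox RV values. The same held for *Selplg* (156 and 79.65 TPM in EV RV, 97.6 and 86.3 TPM in Tox RV). *S1pr4* was also highest in EV RV replicate 1, at 68.3 and 39.8 TPM in EV RV and 37.7 and 38.6 TPM in Tox RV. So was *Ltb4r1*, at 5.56 and 5.15 TPM in EV RV and 5.00 and 2.74 TPM in Tox RV. The pattern was absent from *Gpr183* (11.6 and 12.6 TPM in EV RV, 12.8 and 12.2 TPM in Tox RV), *Ptgdr2* (0.56 to 0.70 TPM) and *Gpr15* (highest in Tox RV replicate 2, 0.81 TPM). How many of all genes were highest in EV RV replicate 1 was not counted. Among the most abundant genes of the list were *Selplg*, which encodes the selectin ligand PSGL-1, and *S1pr4*, and their log2 fold changes were -0.26 and -0.41 (adjusted p = 0.905 and 0.897).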
